A study of Homo sapiens with 16 samples.

Results

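The RAS, RAF, MEK and ERK core genes are the 7 genes NRAS, HRAS, ARAF, BRAF, MAP2K1, MAP2K2 and MAPK3, which encode the central relay of the mitogen-activated protein kinase pathway. They were taken by name from the 64252 genes counted in every library, and 7 of 7 were found. All 7 passed the filter on low counts in each comparison. The list was drawn up by name after the sh-SH2D1A against sh-NC changes of these libraries were known, so it was selected on that contrast: those changes are given as a description, without p-values. Beside them stand the 5 related genes RRAS, RRAS2, MRAS, KSR1 and KSR2. Of these, 4 passed the filter, and MRAS lay near 0 with at most 0.333 counts per 1e6 reads (CPM). CPM were scaled by the trimmed mean of M values (TMM), which sets libraries of different composition on a common footing.

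The data were messenger RNA sequencing counts from 2 established lines of human T-cell acute lymphoblastic leukaemia, Jurkat and 6T-CEM. Cells carried either a control hairpin RNA (sh-NC) or a hairpin RNA against SH2D1A (sh-SH2D1A), the gene of the SLAM-associated adaptor protein SAP. The 8 groups were Jurkat at day 8 and day 10 and 6T-CEM at day 5 and day 10, each with sh-NC and with sh-SH2D1A, and each had 2 libraries. The labels give no event from which the days are counted. They name 1 sh-SH2D1A, so the loss of SH2D1A and any other action of that hairpin cannot be told apart. Whether both libraries of a group came from separate cultures is not stated, so p-values reflect only the spread of these libraries, which may be technical. Each line and day was deposited as a table of its own, and a day or line and any batch between tables cannot be told apart.

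In this pathway, RAS proteins are small GTPases at the plasma membrane that switch between a GDP-bound and a GTP-bound state. GTP-bound RAS recruits RAF kinases, which phosphorylate the kinases MEK1 and MEK2 (MAP2K1 and MAP2K2), which in turn phosphorylate the ERK kinases, among them ERK1 (MAPK3). In T cells the cascade is engaged by the antigen receptor through the exchange factors RASGRP1 and SOS1, and activating lesions of it are known in T-cell leukaemia. These counts measure transcripts, not the activity of the proteins.

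Total counts ran from 27217899 to 33788024 per library, so that 3 counts, the limit a count of 0 allows, equal 0.0888 to 0.110 CPM. That limit covers counting error only. The targeted gene SH2D1A was lower with sh-SH2D1A in all 4 comparisons: no library with sh-SH2D1A was above 80.8 CPM and none with sh-NC below 155 CPM. Its unscaled counts in Jurkat were 5112 and 5811 with sh-NC against 1681 and 1405 with sh-SH2D1A at day 8. At day 10 of Jurkat they were 5029 and 5741 against 1851 and 1904. In 6T-CEM they were 5551 and 5423 against 1649 and 1662 at day 5, and 4635 and 4913 against 2609 and 2478 at day 10. The loss of SH2D1A was thus smallest in 6T-CEM at day 10, and its part in the sizes of other changes was not tested. Replicates of the 6T-CEM day 5 groups differed most from each other: the standard deviation over genes of the log2 difference between replicates was 0.370 with sh-NC and 0.421 with sh-SH2D1A there, against 0.268 to 0.301 in the 6 other groups. The T cell genes CD3E, at 368 to 549 CPM, and LCK were present in every library. The summed CPM of 8 T cell markers was 1924 to 2104 with sh-NC and 1830 to 1845 with sh-SH2D1A in Jurkat at day 8, and 2238 to 2366 against 2010 to 2117 at day 10. In 6T-CEM it was 1120 to 1133 with sh-NC and 1139 to 1159 with sh-SH2D1A at day 5, and 1341 to 1378 against 1277 to 1297 at day 10. Single markers moved more than the sum: 5, 2, 0 and 4 of 8 were called lower by edgeR at day 8 and 10 of Jurkat and then at day 5 and 10 of 6T-CEM, and CD3G and TRBC2 were called higher at day 10 of 6T-CEM. In the same order, 7.13, 2.52, 1.51 and 7.42% of all genes tested were called lower. In either direction, 7, 7, 3 and 7 of the 8 markers had an unadjusted p under 0.05, and DESeq2 called 5, 6, 3 and 6. CD5 had log2 changes of -0.58, -0.57, -0.79 and -0.62, CD7 -0.65, -0.52, -0.08 and -0.74, CD247 -0.49, -0.36, -0.76 and -0.41, and CD3G 0.15, 0.27, 0.50 and 0.17, while those of LCK lay between -0.07 and 0.01. Of the B cell genes, CD79A stood at 14.9 to 74.4 CPM and MS4A1 at 0 to 0.310 CPM, and the summed markers of myeloid, erythroid and epithelial cells were at most 1.33 CPM in any library. The part of these levels in the results below was not tested. In bulk samples, fewer cells of a type and less RNA per cell cannot be told apart.

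The DNA before the starts of NRAS and MAP2K2, the pair with the largest changes, is shown beside that of their paralogues HRAS and MAP2K1. Sequences and start positions are from RefSeq on GRCh38.p14, where all 7 members have a promoter entry. Each line gives the nearest run of at most 100 bases before the RefSeq start that lies in no exon of GENCODE 29, written 5′ to 3′ on the gene's own strand. On build hg38 with GENCODE 29, the genes lie at chr1:114704469-114716894 (NRAS, minus strand), chr11:532242-537287 (HRAS, minus), chrX:47561100-47571920 (ARAF, plus), chr7:140719327-140924928 (BRAF, minus), chr15:66386817-66492312 (MAP2K1, plus), chr19:4090321-4124129 (MAP2K2, minus) and chr16:30114105-30123506 (MAPK3, minus). Capitals mark letters that match 1 of 6 motifs searched on both strands.
NRAS, chr1:114716895-114716912, minus strand: cctagcgctttcattatt
HRAS, chr11:535577-535676, minus strand: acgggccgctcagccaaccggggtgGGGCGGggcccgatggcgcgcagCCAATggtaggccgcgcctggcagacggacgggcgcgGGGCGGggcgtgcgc
MAP2K1, chr15:66386747-66386816, plus strand: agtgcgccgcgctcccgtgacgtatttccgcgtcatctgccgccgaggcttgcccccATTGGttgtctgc
MAP2K2, chr19:4124130-4124229, minus strand: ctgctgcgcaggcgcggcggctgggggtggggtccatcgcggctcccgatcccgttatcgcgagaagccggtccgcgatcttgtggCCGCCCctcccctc
The NRAS run is 18 bases long, and for MAP2K1 the run is the 70-base gap to TIPIN, which is read from the opposite strand. The HRAS run lies within the annotated span of the gene, outside its exons.

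In the full RefSeq windows, 250 bases before to 50 bases after the start, NRAS held 3 GC boxes (GGGCGG), 1 E-box (CACGTG) and 1 ETS core (CCGGAAG). MAP2K2 held 2 GC boxes and none of the other motifs, which were the CCAAT box, the TATA box (TATAAA) and the cAMP response element (TGACGTCA) beside those named. HRAS held 5 GC boxes, 1 CCAAT box and, like NRAS, 1 ETS core. MAP2K1 held 3 GC boxes and 1 CCAAT box, and MAPK3 held 8 GC boxes and 1 E-box. ARAF and BRAF held no GC box and 2 CCAAT boxes each. Of 34943 such windows, 44.9% held a GC box, 34.6% a CCAAT box, 11.6% a TATA box, 10.2% an ETS core, 7.23% an E-box and 1.84% a cAMP response element. No motif contains another. The GC box was thus common to the promoters of NRAS and MAP2K2 and to those of HRAS and MAP2K1, and it is a frequent match.

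Among the RAS genes, NRAS was lower with sh-SH2D1A in both lines and at every day sampled. HRAS was not called in any comparison of sh-SH2D1A with sh-NC. A gene was called where the adjusted p of edgeR's quasi-likelihood test was under 0.05. In Jurkat at day 8, NRAS stood at 129 and 135 CPM with sh-NC and at 67.3 and 65.9 CPM with sh-SH2D1A. At day 10 it stood at 106 and 129 CPM with sh-NC and at 61.3 and 64.5 CPM with sh-SH2D1A. The 4 sh-SH2D1A libraries of Jurkat all lay below its 4 sh-NC libraries. In 6T-CEM at day 5 the values were 214 and 226 CPM with sh-NC and 79.6 and 99.7 CPM with sh-SH2D1A. At day 10 they were 167 and 161 CPM with sh-NC and 79.6 and 82.5 CPM with sh-SH2D1A. Here too the sh-SH2D1A libraries did not overlap the sh-NC libraries. The log2 change was -0.99 ± 0.05 (standard error) in Jurkat at day 8, -0.90 ± 0.10 in Jurkat at day 10, -1.29 ± 0.14 in 6T-CEM at day 5, and -1.02 ± 0.04 at its day 10. The mean with sh-SH2D1A was 50.3, 53.4, 40.7 and 49.4% of the sh-NC mean in the same order.

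HRAS, a RAS gene named for its homology to a sarcoma virus gene, stood at 15.1 and 18.7 CPM with sh-NC and at 20.8 and 23.8 CPM with sh-SH2D1A in Jurkat at day 8, and at 13.7 and 12.95 against 15.4 and 14.6 CPM at day 10. In 6T-CEM it stood at 11.1 and 12.9 CPM with sh-NC and 12.1 and 8.55 CPM with sh-SH2D1A at day 5, and at 25.3 and 24.2 against 33.4 and 22.4 CPM at day 10. The groups overlapped at both 6T-CEM days and did not overlap in Jurkat. Its log2 changes were 0.40 ± 0.13, 0.18 ± 0.15, -0.21 ± 0.25 and 0.17 ± 0.17. The 6T-CEM day 10 value rested on 1 library: it was -0.15 without the first sh-SH2D1A library and 0.44, and called, without the second. In Jurkat at day 8 HRAS was called without the second sh-NC library.

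The log2 changes of RRAS and RRAS2, more distant RAS relatives, lay between -0.32 and 0.28, and none was called.

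**Figure D1:**
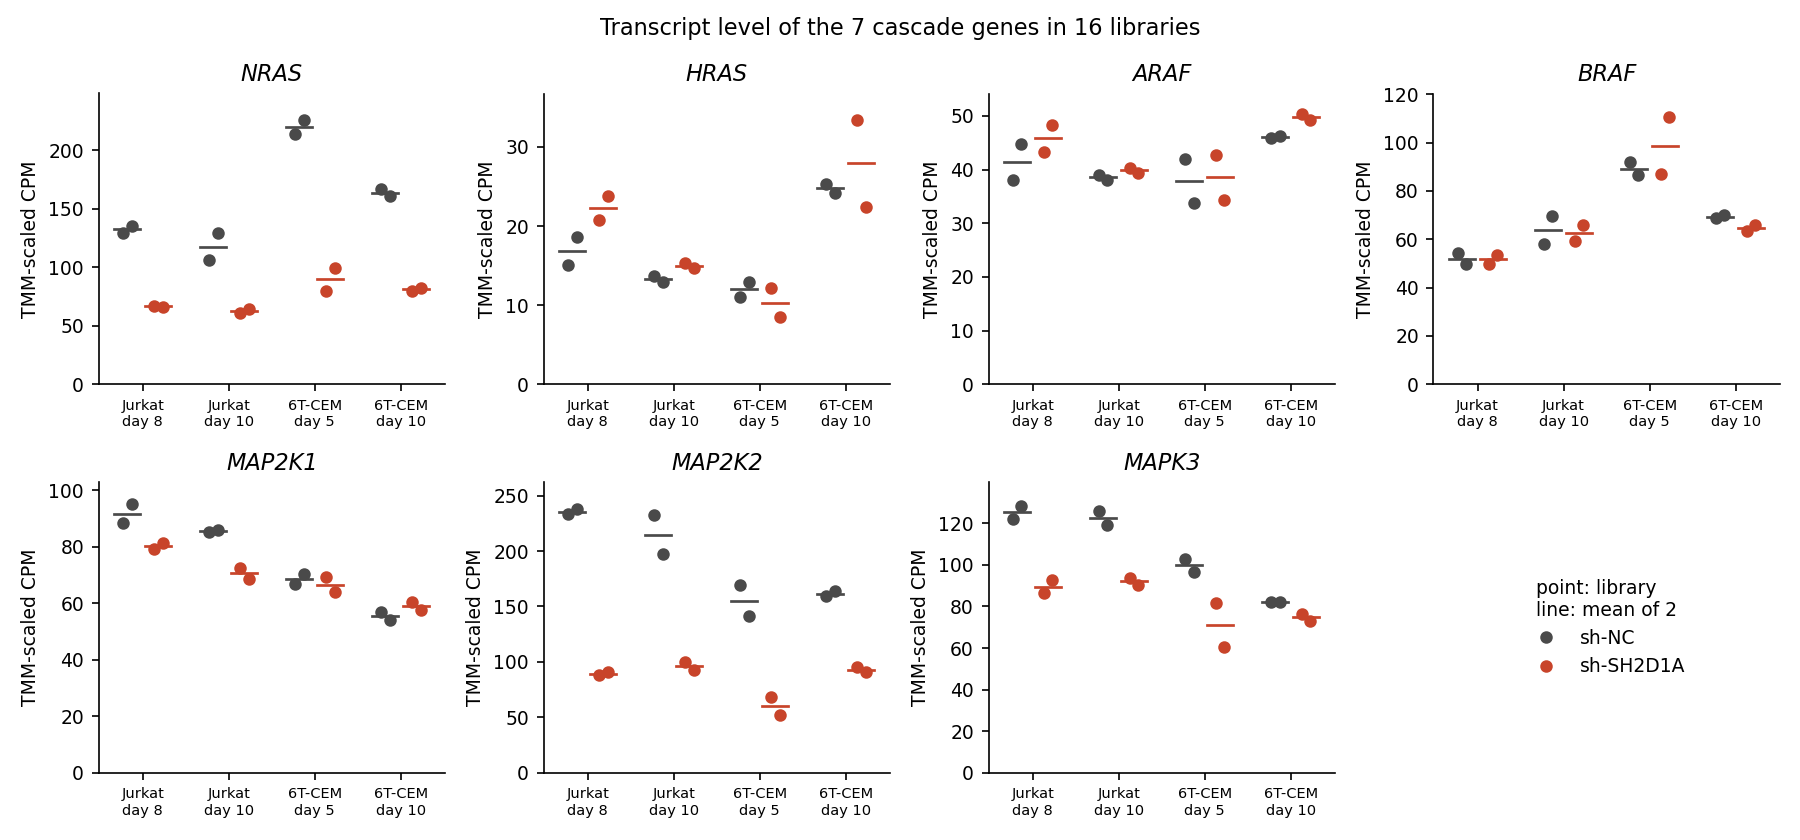
CPM scaled by the trimmed mean of M values (TMM) of the 7 members in 16 libraries; each point is a library and each short line the mean of 2, with sh-NC in grey and sh-SH2D1A in red. The sh-SH2D1A points of NRAS and MAP2K2 lie below the sh-NC points of the same line and day in all 4 comparisons, while those of HRAS and BRAF overlap in at least 2 of them.

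Of the RAF kinases, neither ARAF nor BRAF was called in any comparison of sh-SH2D1A with sh-NC. ARAF, the RAF member with the weakest kinase activity, ranged from 33.8 to 50.3 CPM over the 16 libraries, with log2 changes of 0.15, 0.05, 0.03 and 0.11. BRAF, the RAF kinase most readily activated by RAS, ranged from 49.6 to 110 CPM, with log2 changes of -0.01, -0.02, 0.15 and -0.10. At day 5 of 6T-CEM BRAF stood at 91.9 and 86.6 CPM with sh-NC and at 86.9 and 110 CPM with sh-SH2D1A, and it was called there, at a log2 change of 0.31, when the first sh-SH2D1A library was left out. The scaffolds KSR1 and KSR2, which hold RAF and MEK together, had changes between -0.45 and 0.10. Neither was called by edgeR under the design reported. KSR2 changed by -0.01, -0.37, -0.45 and -0.44. With the replicate number as a block it was called in Jurkat at day 10 and at both 6T-CEM days. KSR1, at -0.32, was called in 6T-CEM at day 5 with all 16 libraries in the fit.

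MAP2K2 was lower with sh-SH2D1A in all 4 comparisons, and its paralogue MAP2K1 was called in none under the design reported. In Jurkat at day 8, MAP2K2 stood at 233 and 238 CPM with sh-NC and 88.4 and 90.5 CPM with sh-SH2D1A. At day 10 it stood at 232 and 197 CPM with sh-NC and 99.8 and 92.5 CPM with sh-SH2D1A. No sh-SH2D1A library of Jurkat reached its lowest sh-NC library at either day. In 6T-CEM at day 5 the values were 169 and 141 CPM with sh-NC and 68.6 and 52.0 CPM with sh-SH2D1A. At day 10 they were 160 and 164 CPM with sh-NC and 95.4 and 90.5 CPM with sh-SH2D1A. No sh-SH2D1A library of 6T-CEM reached the lowest sh-NC library. The log2 changes were -1.40 ± 0.05, -1.15 ± 0.10, -1.36 ± 0.16 and -0.80 ± 0.04, and the sh-SH2D1A means were 38.0, 44.7, 38.9 and 57.5% of the sh-NC means.

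MAP2K1 stood at 88.3 and 95.0 CPM with sh-NC and 79.0 and 81.4 CPM with sh-SH2D1A in Jurkat at day 8, and at 85.1 and 85.7 against 72.4 and 68.7 CPM at day 10. In 6T-CEM it stood at 66.8 and 70.2 against 69.2 and 63.9 CPM at day 5 and at 56.8 and 53.9 against 60.3 and 57.5 CPM at day 10. The sh-SH2D1A libraries were lower in Jurkat, overlapped at 6T-CEM day 5 and were higher at 6T-CEM day 10. The log2 changes were -0.19 ± 0.06, -0.27 ± 0.08, -0.04 ± 0.13 and 0.09 ± 0.06. The Jurkat day 8 change was called without the first sh-NC library, at -0.24, and the Jurkat day 10 change was called when all 16 libraries were fitted together and with the replicate number as a block, at -0.27 in both.

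MAPK3, which encodes ERK1, was called lower in both Jurkat comparisons and in neither 6T-CEM comparison. In Jurkat at day 8 it stood at 122 and 129 CPM with sh-NC and 86.5 and 92.5 CPM with sh-SH2D1A, and at day 10 at 126 and 119 against 93.7 and 90.3 CPM. In 6T-CEM it stood at 103 and 96.7 against 81.4 and 60.4 CPM at day 5 and at 82.1 and 82.1 against 76.4 and 73.2 CPM at day 10. The sh-SH2D1A libraries lay below the sh-NC libraries in each table. The log2 changes were -0.49 ± 0.06, -0.41 ± 0.08, -0.49 ± 0.16 and -0.13 ± 0.05, and the difference in change between the lines was not tested. The call in Jurkat at day 10 was lost without the first sh-NC library, without the second sh-SH2D1A library and with no filter on low counts. In 6T-CEM at day 5 the change was called in 4 of 9 alternatives: at -0.72 without the first sh-SH2D1A library, at -0.49 with the DESeq2 Wald test, at -0.50 with all 16 libraries in the fit and at -0.51 with the replicate block.

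In counts, 3 of the 7 members were called in Jurkat at day 8 and 3 at day 10 (NRAS, MAP2K2 and MAPK3), and 2 in 6T-CEM at day 5 and 2 at day 10 (NRAS and MAP2K2), all of them lower. Over all genes tested, in the order just given, 12.4, 3.78, 2.11 and 14.0% were called, with 7.13, 2.52, 1.51 and 7.42% called lower and 5.23, 1.26, 0.606 and 6.61% called higher. Since the list was selected on this contrast, nothing is read from the members' counts. Of the 4 related genes tested (RRAS, RRAS2, KSR1 and KSR2), 0 were called by edgeR in each of the 4 comparisons under the design reported. In each comparison 1 of them had an unadjusted p under 0.05, RRAS2 in Jurkat at day 8 and KSR2 in the 3 others, and DESeq2 called KSR2 at day 10 of 6T-CEM. The median log2 change over the 7 members was -0.19, -0.27, -0.21 and -0.10, beside -0.05, -0.03, -0.19 and 0.03 over the related genes tested and -0.0032, 0.0042, -0.00076 and 0.0021 over all genes tested.

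**Figure D2:**
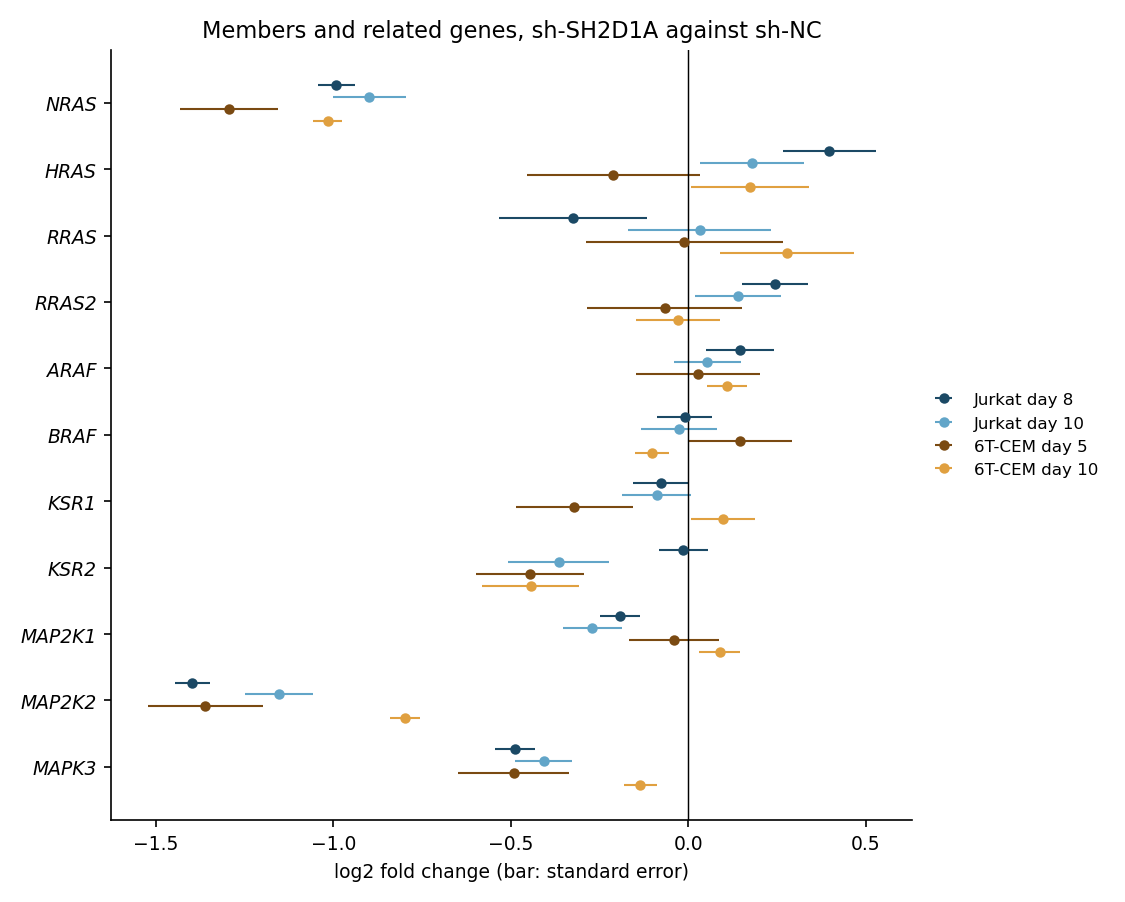
Log2 change with sh-SH2D1A against sh-NC (x axis) of the members and 4 related genes (y axis), with bars for the standard error and 1 colour for each line and day, 2 libraries a group. The points of NRAS lie between -1.29 and -0.90 and those of MAP2K2 between -1.40 and -0.80. Those of RRAS and RRAS2 lie between -0.32 and 0.28, and those of KSR1 and KSR2 between -0.45 and 0.10.

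Ratios of paralogues within a library do not depend on how libraries are scaled. The log2 ratio of NRAS to HRAS counts differed between sh-SH2D1A and sh-NC by -1.39, -1.07, -1.07 and -1.16 in the 4 comparisons. The ratio of MAP2K2 to MAP2K1 differed by -1.21, -0.88, -1.33 and -0.89. Its mean was 1.17 with sh-NC against -0.15 with sh-SH2D1A in 6T-CEM at day 5, and 1.36 against 0.16 in Jurkat at day 8. For BRAF to ARAF the differences were smaller, at -0.16, -0.07, 0.11 and -0.21, and the libraries of the 2 arms overlapped in each comparison but that at day 10 of 6T-CEM. These ratios use the contrast that chose the members and are descriptions.

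**Figure D3:**
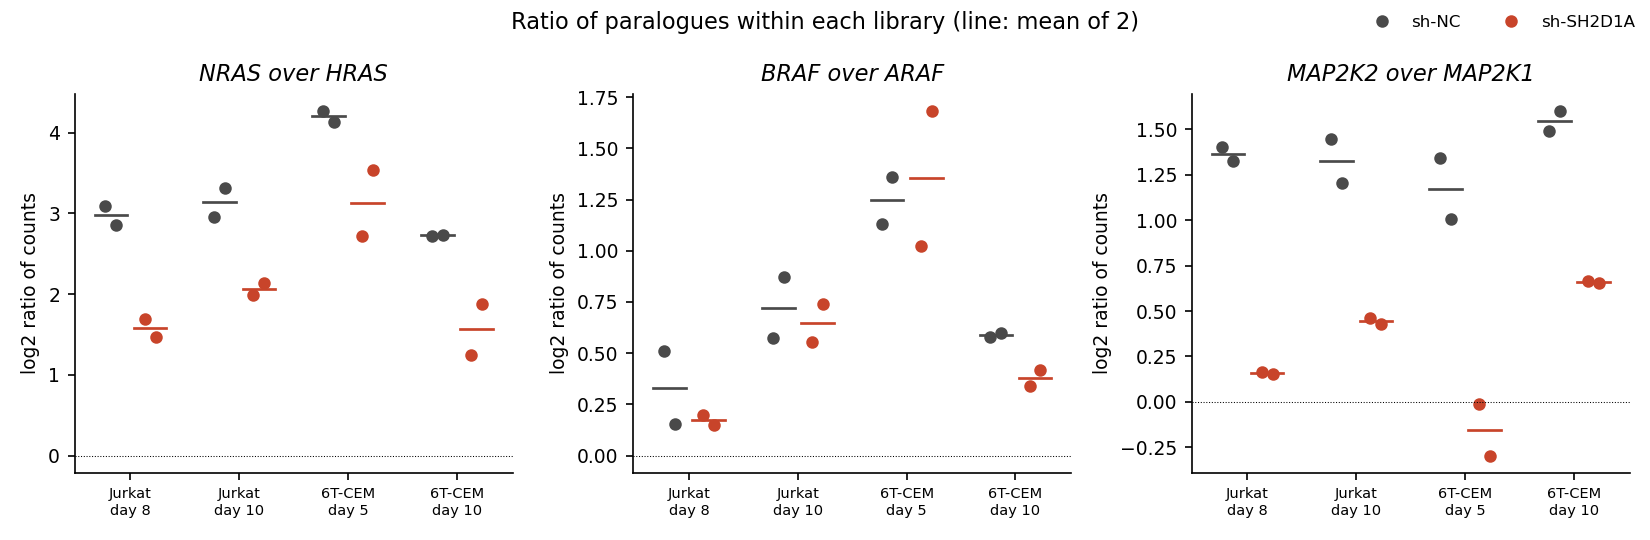
Log2 ratio of counts of 3 pairs of paralogues (y axis) in each library by line and day (x axis); points are libraries, short lines the mean of 2, grey sh-NC and red sh-SH2D1A. The groups of the NRAS to HRAS and of the MAP2K2 to MAP2K1 ratio do not overlap within a line and day, while those of BRAF to ARAF overlap in 3 of 4.

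Per kilobase of the longest coding transcript, and in the same order of comparisons, MAP2K2 made up 83.5, 83.1, 81.5 and 85.2% of the summed level of MAP2K1 and MAP2K2 with sh-NC against 68.7, 72.8, 63.8 and 75.6% with sh-SH2D1A. With merged exons these shares were 61.8 to 67.7% and 39.2 to 53.1%, so MAP2K2 was the more abundant MEK transcript with sh-NC by both lengths, while the order with sh-SH2D1A depended on the length. The summed MEK level, by coding transcript, was 163 against 75.1 CPM per kilobase in Jurkat at day 8, 149 against 76.1 in Jurkat at day 10, 110 against 54.3 in 6T-CEM at day 5 and 109 against 70.9 in 6T-CEM at day 10.

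Genes that overlap or adjoin a member could share reads with it, since the strand setting of the counting is not given in the sources used here. On the opposite strand, SYN1 overlaps ARAF by 23 bases, NDUFB2 overlaps BRAF by 3464 bases and SNAPC5 overlaps MAP2K1 by 2178 bases, and none of them was called between arms. RNU6-85P, which overlaps BRAF, and RPL35AP32 and ATP5MFP6, which overlap MAP2K1, had at most 6 counts in a library, and the antisense gene ENSG00000261351 over MAP2K1 had 41 to 132. MAP2K2 has no overlapping gene in the annotation. GDPD3, 248 bases from MAPK3 on the same strand, was called lower in Jurkat at day 8 at -0.93 ± 0.16, with 49 to 334 counts per library. The listed pseudogenes of these genes had at most 24 counts in a library.

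The 2 lines were compared at day 10, and the days within each line, in a fit of all 16 libraries. These contrasts are within an arm but use the libraries of the sh-SH2D1A comparisons. Whether they played a part in choosing the members is not known, so their p-values may not be those of unselected genes. In the sh-NC libraries at day 10, 36.6% of 22032 genes were called between the lines, and 5 of the 7 members. By edgeR's quasi-likelihood test, with adjustment over all genes, MAP2K1 was higher in Jurkat by 0.62 ± 0.07 on the log2 scale (adjusted p = 9.8e-06), MAPK3 by 0.58 ± 0.10 (adjusted p = 0.00054) and MAP2K2 by 0.41 ± 0.11 (adjusted p = 0.012). HRAS differed by -0.90 ± 0.19 (adjusted p = 0.0022) and NRAS by -0.48 ± 0.10 (adjusted p = 0.0020), both lower in Jurkat. ARAF, at -0.26 ± 0.12, and BRAF, at -0.12 ± 0.11, were not called. For each called member both libraries of a line lay on the same side of both libraries of the other. The MAP2K2 call was lost without either 6T-CEM library or without the first Jurkat library, when the difference was 0.39, 0.41 and 0.28.

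With sh-SH2D1A, 35.7% of all genes and 4 of the 7 members were called between the lines at day 10. By edgeR, MAP2K1 differed by 0.27 ± 0.07 (adjusted p = 0.0095), MAPK3 by 0.30 ± 0.10 (adjusted p = 0.034), HRAS by -0.89 ± 0.19 (adjusted p = 0.0023) and NRAS by -0.36 ± 0.10 (adjusted p = 0.015). MAP2K2 differed by 0.05 ± 0.12 (adjusted p = 0.76). Of the calls in this arm, that of HRAS held without any single library; MAP2K1 was lost without either 6T-CEM library or the first Jurkat library, MAPK3 without any 1 of the 4, and NRAS without the first Jurkat library, with adjusted p of 0.052 to 0.25.

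Between days, 3.40% of all genes in the sh-NC arm and 6.55% in the sh-SH2D1A arm were called in Jurkat from day 8 to day 10, and 0 of the 7 members in each arm by edgeR. At an unadjusted p under 0.05 there were 1 member (BRAF) in the sh-NC arm and 3 in the sh-SH2D1A arm (HRAS, MAP2K1 and BRAF). HRAS changed by -0.56 ± 0.19 in the sh-SH2D1A arm (adjusted p = 0.10), with both day 10 libraries below both day 8 libraries, and this was called with the DESeq2 Wald test (adjusted p = 0.039) and when only the 4 libraries were fitted (adjusted p = 0.019).

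In 6T-CEM, 39.9% of all genes in the sh-NC arm and 43.1% in the sh-SH2D1A arm were called from day 5 to day 10, and 5 of the 7 members in each arm. A called gene is thus no rare event in these comparisons. HRAS rose by 1.02 ± 0.19 with sh-NC (edgeR, adjusted p = 0.00076) and by 1.41 ± 0.20 with sh-SH2D1A (adjusted p = 5.3e-05), and it was called under each of 9 alternatives in both arms. BRAF fell by 0.39 with sh-NC (adjusted p = 0.012) and by 0.63 with sh-SH2D1A (adjusted p = 0.00040). NDUFB2, on the other strand of BRAF, rose by 1.76 with sh-NC, and by 1.84 with sh-SH2D1A; the part of shared reads was not tested. The sh-NC call of BRAF was lost without the first day 5 library or either day 10 library. NRAS fell by 0.46 ± 0.10 with sh-NC (adjusted p = 0.0024) and was not called with sh-SH2D1A, at -0.17 ± 0.10 (adjusted p = 0.21), although it was called there, at -0.32, without the first day 5 library. MAP2K2 was not called with sh-NC, at 0.03 ± 0.11, and rose by 0.60 ± 0.12 with sh-SH2D1A (adjusted p = 0.00087). MAP2K1 fell by 0.34 with sh-NC (adjusted p = 0.0017) and by 0.20 with sh-SH2D1A (adjusted p = 0.034), while SNAPC5 on its other strand rose by 0.87 with sh-NC. ARAF rose with sh-SH2D1A by 0.34 (adjusted p = 0.032). MAPK3 fell with sh-NC by 0.31 (adjusted p = 0.027) and was not called with sh-SH2D1A. The MAP2K1 call with sh-NC was lost without the second day 10 library, and with sh-SH2D1A without the first day 5 or either day 10 library. ARAF lost its call without the second day 5 or either day 10 library, and MAPK3 without any 1 library. With only the 4 libraries fitted, the sh-SH2D1A calls of MAP2K1 and ARAF were also lost (edgeR, adjusted p = 0.304 and 0.0766). With no filter on low counts, MAP2K1 lost its sh-SH2D1A call and MAPK3 its sh-NC call (edgeR, adjusted p = 0.165 and 0.0533). MAPK3 with sh-SH2D1A was called, at 0.29, without the first day 5 library, and ARAF with sh-NC, at 0.43, without the first day 5 library. The same day 10 libraries served the comparison between lines, so these results are not independent of each other, and the differences between arms were not tested.

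**Figure D4:**
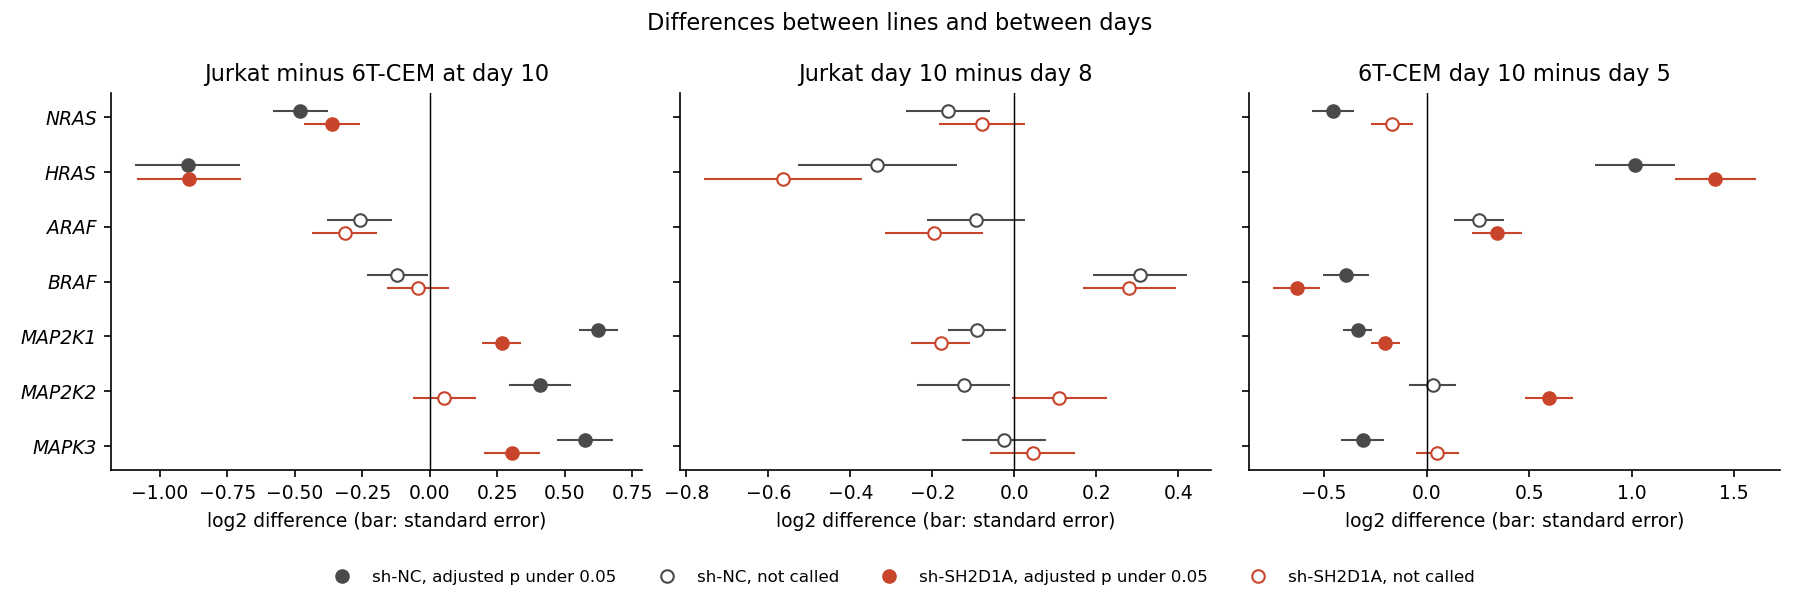
Log2 difference of the 7 members (y axis) between lines at day 10 and between days in each line (x axes), with standard errors, in the sh-NC arm (grey) and the sh-SH2D1A arm (red); filled points passed an adjusted p under 0.05. HRAS is lower in Jurkat than in 6T-CEM at day 10 by 0.90 and 0.89 and rises in 6T-CEM by 1.02 and 1.41, and no point is filled in the Jurkat day panel.

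The related genes KSR1 and KSR2 were higher in Jurkat than in 6T-CEM with sh-NC at day 10, by 0.42 ± 0.10 (edgeR, adjusted p = 0.0031) and 0.59 ± 0.15 (adjusted p = 0.0072). KSR1 lost this call without the first 6T-CEM library, and KSR2 without that library or the second Jurkat library. With sh-SH2D1A, KSR2 was again higher in Jurkat, by 0.66 ± 0.15 (edgeR, adjusted p = 0.0036), a call lost without the first 6T-CEM or the second Jurkat library, and KSR1, at 0.23 ± 0.09, was not called.

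The ratio of NRAS to HRAS was compared between the lines at day 10, the day they share. With sh-NC its mean log2 was 3.14 in Jurkat (2.96 and 3.32) and 2.73 in 6T-CEM (2.72 and 2.73), higher in Jurkat by 0.41 with no overlap. For MAP2K2 to MAP2K1 the means were 1.33 (1.20 and 1.45) and 1.55 (1.49 and 1.60), a difference of -0.22, lower in Jurkat, with no overlap. With 2 libraries a line the exact two-sided permutation p was 0.333 for each, the smallest it allows. Within 6T-CEM the NRAS to HRAS ratio had a mean of 4.20 at day 5 and 2.73 at day 10, with no overlap between the days. Over the 4 sh-NC libraries of each line, which pool unlike days, the means were in the other order for NRAS to HRAS, at 3.06 ± 0.20 (SD, n = 4) in Jurkat and 3.47 ± 0.85 in 6T-CEM (exact two-sided permutation p = 0.429, adjusted over 2 tests 0.857, smallest possible 0.0286). For MAP2K2 to MAP2K1 they were 1.34 ± 0.11 and 1.36 ± 0.26 (exact permutation p = 0.914, adjusted 0.914).

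Around the core genes, 100 pathway genes other than the members were counted in 10 lists. Among the 100 are the 5 related genes described above, in a list of paralogues of the members. Among those tested, 3 were called higher and 21 lower of 93 in Jurkat at day 8, 1 higher and 7 lower of 93 at day 10, 0 higher and 6 lower of 92 in 6T-CEM at day 5, and 14 higher and 13 lower of 97 at day 10. Their median log2 changes were -0.06, -0.06, -0.08 and 0.03. In shares, 22.6, 7.53, 6.52 and 13.4% of those tested were called lower, beside 7.13, 2.52, 1.51 and 7.42% of all genes, and 3.23, 1.08, 0 and 14.4% higher, beside 5.23, 1.26, 0.606 and 6.61%. The lists were drawn up with results of these data known, and no test was made of a list. Genes were named from them by the lowest adjusted p in these same comparisons, so their changes are given as a description. Counts below are given in the same order of comparisons, and each stands beside the shares of all genes given above. Of the feedback inhibitors of ERK signalling, 4, 2, 2 and 1 were called lower of 11, 11, 9 and 11 tested, and SPRY2 was called higher in 6T-CEM at day 10. SPRED1 and SPRED2, which restrain RAS and RAF, led this list. SPRED2 was called lower in each comparison, at -0.62, -0.51, -1.18 and -0.45. SPRED1 was called lower in Jurkat at both days and in 6T-CEM at day 5, at -0.47, -0.66 and -0.89.

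Of the ERK-responsive transcription factors and immediate early genes, 4, 3, 1 and 2 of 10, 10, 9 and 10 tested were called lower, and 1 higher in 6T-CEM at day 10. ETV5, an ETS factor whose transcript is induced by ERK signalling, was called lower by edgeR in all 4 comparisons. Its log2 changes were -1.44 ± 0.12, -1.36 ± 0.13, -1.60 ± 0.22 and -1.42 ± 0.15. EGR1, an immediate early transcription factor, was called lower in Jurkat, at -0.90 and -0.79, whereas EGR2 was called higher in 6T-CEM at day 10, from 0.360 to 1.78 CPM. Among kinases activated by ERK, 3, 1, 1 and 2 of 7 were called lower and 1 higher in 6T-CEM at day 10; MKNK2, which phosphorylates eIF4E, was at -0.58 in Jurkat at day 8. RPS6KA5, a chromatin kinase, was called lower in 6T-CEM at both days and in Jurkat at day 10, at -0.91, -0.96 and -0.45.

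Of the RAS exchange factors, edgeR called 2, 0, 0 and 1 lower of 7, 7, 7 and 8 tested, while 4, 2, 3 and 2 had an unadjusted p under 0.05 and DESeq2 called 1 in each comparison. The edgeR counts of this list and of those below stand beside 7.13, 2.52, 1.51 and 7.42% of all genes called lower. The shares of all genes called higher were 5.23, 1.26, 0.606 and 6.61%. RASGRP2 was called lower at -0.35 at day 8 of Jurkat and at -0.98 at day 10 of 6T-CEM. Of the GTPase-activating proteins, which switch RAS off, 1, 1, 0 and 4 were called higher and 1, 0, 1 and 2 lower of 9 tested in each comparison, with DAB2IP higher at 0.54 and 0.57 in Jurkat and 1.19 in 6T-CEM at day 10, RASA1 higher at 0.55 in 6T-CEM at day 10, and RASA3 lower at -0.84 in 6T-CEM at day 5. Of the adaptors upstream of RAS, with 8, 8, 9 and 9 tested, LAT was called lower at -0.33 in Jurkat at day 8; GAB2 was called lower and CBL higher in 6T-CEM at day 10. The 8 lipid processing and transport genes of RAS had 1 call lower in Jurkat at day 8 (PDE6D) and 1 higher in 6T-CEM at day 10 (FNTB). Among scaffolds and cascade regulators, 2, 1, 1 and 3 were called lower and 1, 0, 0 and 1 higher of 14, 14, 15 and 15 tested. IQGAP1, which binds MEK and ERK, was called lower in all 4 comparisons, at -0.48, -0.51, -0.57 and -0.30, and IQGAP2 was called lower at day 8 of Jurkat and day 10 of 6T-CEM, at -0.37 and -0.58. Of the other MAP kinase cascades, with 12, 12, 12 and 13 genes tested, there were 1 higher and 3 lower calls in Jurkat at day 8 (MAPK11 and MAPK9 among the lower), 0 by edgeR and 0 by DESeq2 at day 10 of Jurkat and day 5 of 6T-CEM (1 and 2 with an unadjusted p under 0.05), and 4 higher and 1 lower in 6T-CEM at day 10 (MAP2K7 and MAPK7 among the higher).

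The 5 genes most like NRAS across the 16 libraries, among 10371 genes with a mean of at least 10 CPM, were TOP2B (Pearson r = 0.987), OTUD6B (0.986), SPTY2D1 (0.980), CALU (0.978) and HINT3 (0.976). The mean of TOP2B was 448 with sh-NC against 239 CPM with sh-SH2D1A in Jurkat at day 8 and 706 against 320 CPM in 6T-CEM at day 5. Those most like MAP2K2 were SUMO3 (0.956), AQP3 (0.950), TBCA (0.949), NFKB1 (0.944) and SLA (0.939). TBCA stood at 112 with sh-NC against 29.9 CPM with sh-SH2D1A in Jurkat at day 8 and at 71.0 against 24.2 CPM in 6T-CEM at day 10. All these values are from the same libraries and share the sh-SH2D1A difference, so the correlations describe likeness only.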

How the data were processed

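The authors deposited whole-number counts per Ensembl gene, not normalised, in 4 tables of 64252 genes. RNA was extracted with TRIzol and libraries made with a TruSeq kit, per the labels' protocols; HISAT2 2.2.0, StringTie and hg38 are named in the submitters' processing notes. For the counting step, annotation release and strand setting, no source used here gives the choice, and counts made with StringTie would be estimates from coverage. Genes were placed with GENCODE 29.

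Members and gene lists were chosen with earlier results of these data known. In R 4.3.3 with edgeR 4.0.16, genes were filtered by filterByExpr (minimum count 10), scaled by TMM and tested by the two-sided quasi-likelihood test, with Benjamini-Hochberg adjustment. Each sh-SH2D1A comparison was fitted on its 4 libraries; line and day contrasts on all 16 libraries. The standard error is the absolute log2 change over the square root of F. The procedure was tested on simulated data.

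Named genes were the members, their relatives, up to 2 called genes per pathway list and comparison with the lowest adjusted p and no overlap between libraries, the 5 genes most correlated with NRAS and MAP2K2, and genes that overlap a member; GDPD3 was named as a near neighbour. Some genes of these lists are not reported here. Alternatives were DESeq2 1.42.0 size factors and Wald test, no low-count filter, the replicate number as a block, other sets of libraries in the fit, pseudocounts for ratios and each library left out; merged exon length and ratios at day 10 only were added after seeing the data. Equal replicate numbers did not pair libraries by any label. No library was left out.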

Additional observations from a re-analysis of the deposited data

Results flagged for a closer look

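In 5 cases a member moved in opposite directions in the 2 lines under the same contrast, with both libraries of an arm or day on the same side each time. The difference itself was not tested, and the days compared differ: day 5 to day 10 in 6T-CEM and day 8 to day 10 in Jurkat. From the earlier to the later day with sh-NC, BRAF changed by -0.39 in 6T-CEM and 0.31 in Jurkat, and HRAS by 1.02 and -0.33. With sh-SH2D1A, ARAF changed by 0.34 and -0.20, BRAF by -0.63 and 0.28, and HRAS by 1.41 and -0.56 in the same order. Each of these 6T-CEM changes was called by edgeR under the design reported, and none of the Jurkat changes was.

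For MAP2K1, the sh-SH2D1A libraries lay above the sh-NC libraries in 6T-CEM at day 10, at a log2 change of 0.089, and below them in Jurkat at day 8, at -0.19, and at day 10, at -0.27. None of these 3 changes was called by edgeR under the design reported, and the difference between lines was not tested.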

How the results depend on the processing

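Each library left out of a group leaves 1 library in that arm, which is then assumed to vary like the others. When low counts were not filtered, edgeR called 0 members in the sh-SH2D1A comparison of Jurkat at day 10, where it called 0 genes in all; otherwise NRAS and MAP2K2 were called lower in every comparison and alternative run. Without the first sh-SH2D1A library, 4 members were called in 6T-CEM at day 5; over libraries left out the count there ran from 2 to 4. Leaving out a library gave 2 to 4 members from day 5 to day 10 in 6T-CEM with sh-NC, 3 to 6 with sh-SH2D1A, and 1 to 3 between lines with sh-SH2D1A. With only the 4 libraries fitted, 3 members were called from day 5 to day 10 in 6T-CEM with sh-SH2D1A and 1 from day 8 to day 10 in Jurkat with sh-SH2D1A, where the DESeq2 Wald test also called 1. The cause was not tested.

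The sign of 10 line or day values of members turned when 1 library was left out; none was called under the design reported. With each library left out in turn, day 10 minus day 8 in Jurkat with sh-NC ran from -0.20 to 0.024 for ARAF and from -0.070 to 0.0056 and 0.0085 for MAPK3, and with sh-SH2D1A from -0.0050 to 0.089 for MAPK3. Day 10 minus day 5 in 6T-CEM ran from -0.090 to 0.18 for MAP2K2 with sh-NC, and with sh-SH2D1A from -0.32 to 0.016 for NRAS and from -0.13 to 0.29 for MAPK3. Between lines with sh-SH2D1A it ran from -0.13 to 0.028 for BRAF and, for MAP2K2, from -0.022 and -0.0077 to 0.099. The NRAS to HRAS ratio between lines, -0.41 over both days, was 0.41 with the day 10 libraries only. The MAP2K2 to MAP2K1 ratio between lines, -0.015, was 0.049 in the sh-SH2D1A libraries and 0.029 to 0.066 without 1 of 3 sh-NC libraries.

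Counts over all genes moved by over 1.5 times in these cases. In Jurkat at day 8, 2381 calls became 873 with no filter, 1323 with all 16 libraries and 633 to 835 without a sh-SH2D1A library. In Jurkat at day 10, 721 became 0 with no filter and 1423 with the replicate block. In 6T-CEM at day 5, 412 became 1118 with DESeq2, 2188 with the block, 3108 with all 16 libraries and 2139 to 2865 without a sh-SH2D1A library. In 6T-CEM at day 10, 2752 became 1099 with no filter and 916 with all 16 libraries. Between Jurkat days, 749 with sh-NC became 1561 with DESeq2 and 94 to 335 without a library, and 1442 with sh-SH2D1A became 2214 with DESeq2, 2366 with the 4 libraries alone and 413 to 635 without a library.

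With the replicate block, 3, 4, 3 and 2 members were called in the sh-SH2D1A comparisons (Jurkat at day 8 and 10, then 6T-CEM at day 5 and 10); MAP2K1 was added at day 10 of Jurkat and MAPK3 at day 5 of 6T-CEM. Deviations of same-numbered libraries correlated at 0.052, 0.081, 0.043 and 0.031 over 15985 genes, so the numbers were not taken as pairs. Depth did not limit detection of a member: the lowest value, for HRAS, was 8.55 CPM, against at most 0.110 CPM for 3 counts.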
